A study of Homo sapiens with 12 samples.

Results

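MYOM2 encodes myomesin 2, also called M-protein, a muscle protein that was measured here in a kidney-derived line after knockdown of the cyclophilin PPIL3. It was selected on measured values, namely its gene-level difference and the small splicing-index p-values of the junction probe sets JUC08000121 and JUC08000156. Its values are therefore given as a description, with no test. All probe sets annotated to MYOM2 alone were taken in the order of their numbers, 106 of the 913055 exon and junction probe sets on the array. They comprise 58 exon probe sets (named PSR) and 48 junction probe sets (named JUC), which cover the point where 2 exons are joined. The paralogs MYOM1, with 80 probe sets, and MYOM3, with 93, were read for contrast. Each of the 3 genes has 1 transcript cluster, the array's gene-level summary, of 67528.

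The cells were HEK293T, an established human embryonic kidney line. One line stably carried a scrambled short hairpin (SCR) and the second a hairpin directed at PPIL3, and both were under puromycin selection. Each line was measured on 3 Human Transcriptome Array 2.0 arrays. The labels number the PPIL3 hairpin in 2 ways, and the design text takes the number of the source names. Whether replicates were separate cultures is not stated, so a p-value here measures the spread between arrays and no more. With 1 line per hairpin, effects of the hairpin and of the line cannot be told apart.

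The 2 hairpins are shown, 5′ to 3′, because they define the groups in the design text. Since the titles carry another number for the PPIL3 hairpin, the sequence used on these arrays is not certain. Capitals mark the longest stretch whose reverse complement follows in the same hairpin, 24 bases for PPIL3 and 20 for SCR.
PPIL3 hairpin: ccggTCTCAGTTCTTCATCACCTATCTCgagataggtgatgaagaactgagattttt
SCR hairpin: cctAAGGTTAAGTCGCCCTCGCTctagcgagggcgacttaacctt

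Myomesins are elastic proteins built from immunoglobulin and fibronectin domains that cross-link myosin filaments at the M-band, the middle of the sarcomere, where they also bind titin. MYOM1 is made in all striated muscle, with an embryonic splice form, whereas MYOM2 belongs to heart and fast skeletal fibres and MYOM3 to a subset of fibres. PPIL3 belongs to the nuclear cyclophilins, prolyl isomerases of the spliceosome, and is among the smallest of them.

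All values are log2 RMA signals, and each difference is knockdown minus SCR. PPIL3, the targeted gene, fell by 0.51 (SE 0.030), with 7.75, 7.81 and 7.81 on the SCR arrays against 7.30, 7.26 and 7.28 on the knockdown arrays (limma adjusted p = 0.0050). Leaving out SCR array 2 gave an adjusted p of 0.053, and leaving out SCR array 3 gave 0.080. Array medians of the gene-level signal ran from 6.57 to 6.62. The test covered 19912 genes, of which 0.557% were higher and 0.131% lower at a limma adjusted p under 0.05, 137 genes in all, against 32 with the replicate number as a block.

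The MYOM2 cluster (TC08000014.hg.1) had a gene-level signal of 7.34, 7.26 and 7.28 on the SCR arrays against 7.86, 7.88 and 7.91 on the knockdown arrays. Every knockdown array lay above every SCR array. The group means were 7.29 ± 0.043 (SD, n = 3) and 7.88 ± 0.028 (SD, n = 3), so the knockdown was higher by 0.59 (SE 0.033), which is 1.51-fold. In RNA from whole cultures, more cells with the transcript and more transcript per cell cannot be told apart.

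The paralogs, whose values did not choose the gene, did not pass the test. MYOM1 (TC18000288.hg.1) had 5.85, 5.85 and 5.79 on the SCR arrays against 5.92, 5.85 and 5.85 on the knockdown arrays. The groups overlapped, and the same value to all digits stood on 4 arrays. The difference was 0.04 (SE 0.034, limma adjusted p = 0.62), with a 95% interval from -0.04 to 0.13. MYOM3 (TC01002357.hg.1) had 6.65 on all 3 SCR arrays against 6.65, 6.51 and 6.66 on the knockdown arrays. Knockdown array 2 was the lowest of the 6. The difference was -0.04 (SE 0.046, limma adjusted p = 0.74), with a 95% interval from -0.18 to 0.10, and it was 0.01 without knockdown array 2.

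**Figure D1:**
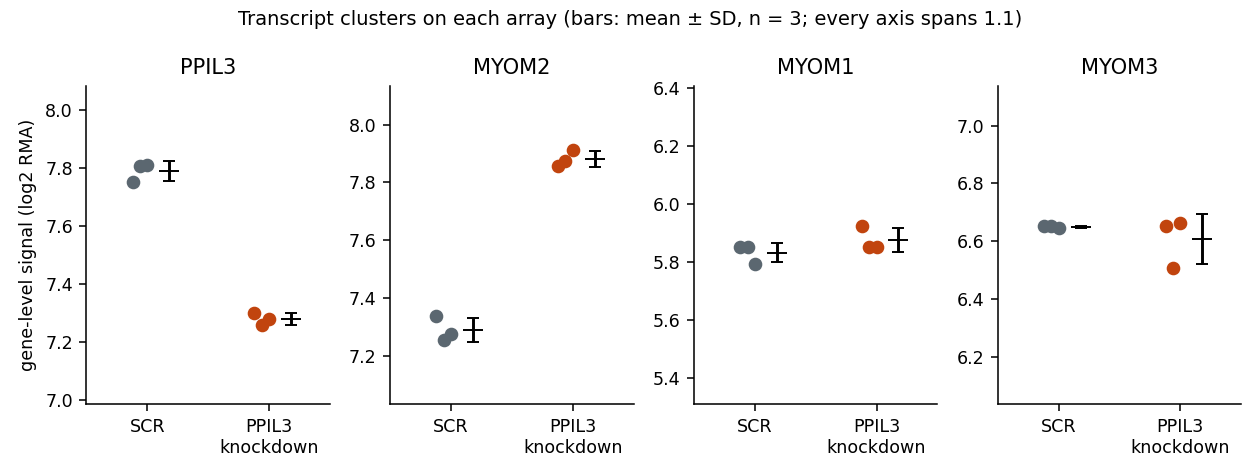
Gene-level signal (log2 RMA) of PPIL3, MYOM2, MYOM1 and MYOM3 on the 3 SCR and 3 knockdown arrays, 1 point per array, with mean ± SD (n = 3) beside the points. The axes differ in position but span the same width, and only PPIL3 and MYOM2 have groups that do not overlap.

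Along MYOM2, most exon probe sets were higher in the knockdown, but not by the same amount, and a minority stayed near 0. Over all 58 exon probe sets, the 3 knockdown arrays lay above the 3 SCR arrays in 42, and the reverse held in 0. Over all 48 junction probe sets, the knockdown arrays lay above in 29 and below in 3. Among the 745098 probe sets of the array whose mean signal was 5 or more, such separation was found upward in 7.86% and downward in 8.24%. Because the gene was chosen for its difference, nothing is read from this contrast.

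Of the 106 MYOM2 probe sets, 97 reached a mean signal of 5, 55 of them exon and 42 junction, of which 2 exon probe sets had an SCR mean under 5. Over these 97, the median difference was 0.64 for exon and 0.66 for junction probe sets, and 0.62 for the 53 exon probe sets with an SCR mean of at least 5. Over all exon and all junction probe sets that passed on the array it was -0.0082 and -0.0013. The pooled SD within a group had a median of 0.13 for exon and 0.17 for junction probe sets of MYOM2. The differences of the exon probe sets ran from -0.17 to 2.10, the latter in a probe set with an SCR mean under 5. Those of the junction probe sets ran from -0.56 to 1.86. A difference above 1 was seen in 14 exon and 13 junction probe sets, against 0.0662% of the probe sets tested on the array. A difference within 0.25 of 0 was seen in 17 exon and 9 junction probe sets.

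The 3 arrays of a group resembled each other in this shift. Taking each probe set relative to its SCR mean, the median over the exon probe sets that passed was 0.03, -0.01 and -0.02 on the SCR arrays against 0.60, 0.63 and 0.70 on the knockdown arrays. The median over the junction probe sets was 0.02, 0.02 and -0.06 on the SCR arrays against 0.66, 0.66 and 0.67 on the knockdown arrays. No single knockdown array carried the difference.

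In order of number, exon probe sets higher without overlap stood in runs, which 42 of 58 make likely in any order and which were not tested. The first, PSR08000226, was the brightest MYOM2 exon probe set and had 10.72, 10.40 and 10.81 on the SCR arrays against 10.61, 10.31 and 10.80 on the knockdown arrays, a difference of -0.07 (SE 0.16). The next 13, PSR08000228 to PSR08000240, were all without overlap, with differences from 0.09 to 1.17. PSR08000241 followed with -0.17, and then 7 in a row, PSR08000243 to PSR08000249, with 0.28 to 1.56. Another 7 without overlap ran from PSR08000255 to PSR08000261, with 0.54 to 2.10. Later runs held 4, 3 and 5 probe sets, and PSR08000253, PSR08000285 and PSR08000288 stood alone without overlap, at 0.97, 0.41 and 0.45. The other stretches, of 1 to 3 probe sets, lay within 0.25 of 0. PSR08000250 to PSR08000252 had -0.08 to 0.21, PSR08000267 and PSR08000268 had -0.05 and 0.08, and PSR08000272 and PSR08000273 had -0.03 and 0.10. The last, PSR08000291, was at -0.06.

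With the number order split into 3 segments of near-equal size, the exon probe sets that passed had a median difference of 0.62 in the first segment (19 probe sets), 0.99 in the middle segment (17) and 0.41 in the last segment (19). The last segment held both large differences and 9 probe sets whose groups were not separated upward, against 2 in the first segment. The junction probe sets had medians of 0.54 (12), 0.85 (16) and 0.66 (14). Both types were highest in the middle segment. The numbers give an order only, since the genome build and exon of each probe set were not used here.

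**Figure D2:**
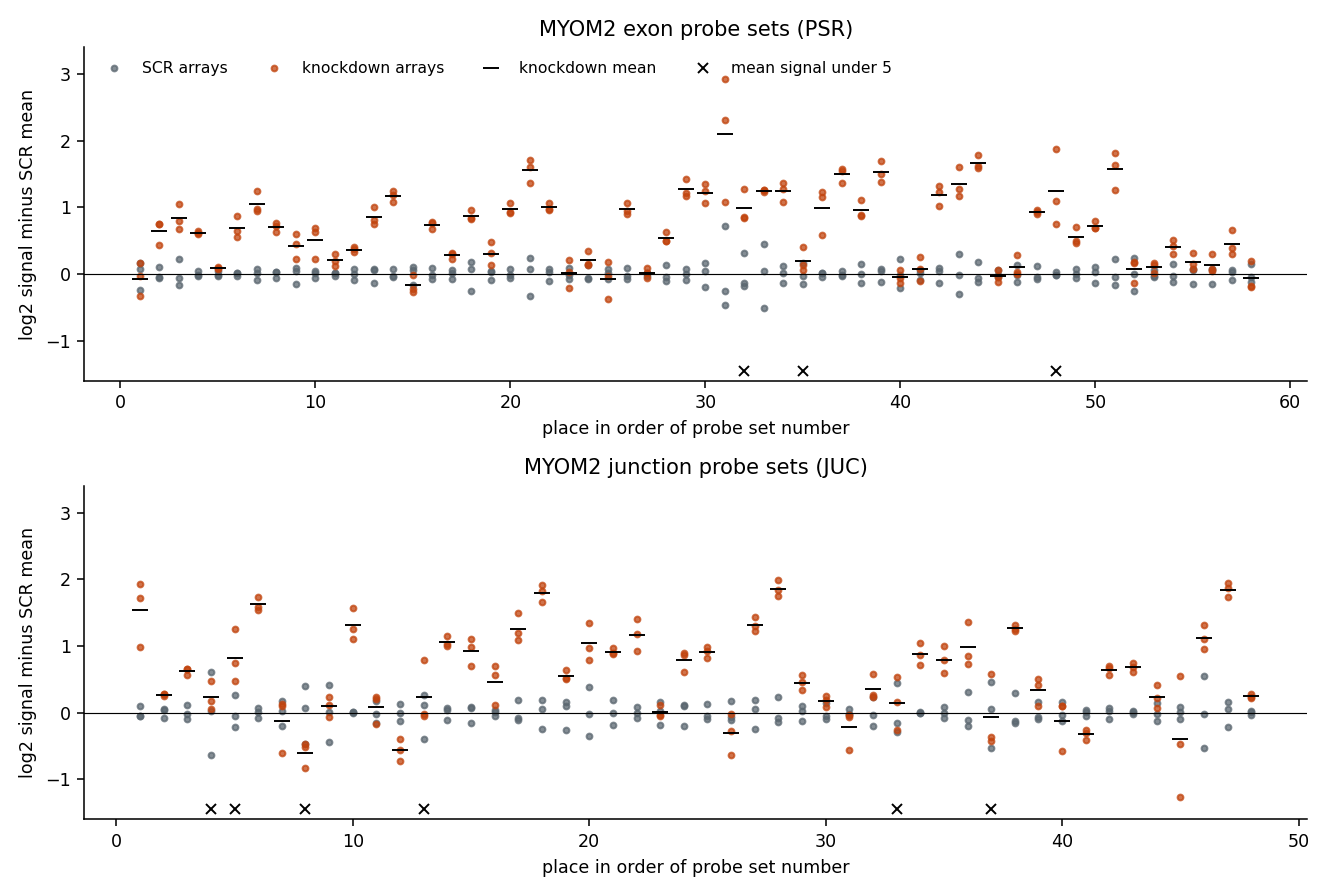
MYOM2 exon probe sets (top) and junction probe sets (bottom) in order of probe set number, with the log2 signal of each array minus the SCR mean of that probe set. Grey points are SCR arrays, orange points knockdown arrays, black bars the knockdown mean and crosses mark probe sets with a mean signal under 5. Most exon probe sets are higher in the knockdown, and others lie near 0.

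The largest exon difference was also the least certain. PSR08000258 had 4.10, 3.89 and 5.08 on the SCR arrays against 5.44, 7.29 and 6.67 on the knockdown arrays. The groups did not overlap, but arrays of 1 group differed by more than 1, and the difference was 2.10 (SE 0.49). PSR08000271 had 6.60, 6.90 and 6.67 on the SCR arrays against 8.31, 8.34 and 8.50 on the knockdown arrays, a difference of 1.67 (SE 0.11). PSR08000248 had 6.23, 6.80 and 6.64 against 7.92, 8.17 and 8.27, a difference of 1.56 (SE 0.16). In both of these the gap between the groups exceeded the range within either. PSR08000281 had 5.01, 4.74 and 4.62 against 6.43, 6.06 and 6.61, a difference of 1.57 (SE 0.16). PSR08000258 and PSR08000281 had SCR means of 4.36 and 4.79, under the filter of 5. They were the 2 MYOM2 exon probe sets that passed only through the knockdown arrays.

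The lowest exon probe sets showed no separation. PSR08000241 had 7.37, 7.41 and 7.15 on the SCR arrays against 7.30, 7.04 and 7.09 on the knockdown arrays, a difference of -0.17 (SE 0.11). PSR08000252 had 8.75, 8.66 and 8.81 against 8.91, 8.36 and 8.71, a difference of -0.08 (SE 0.14), and its knockdown arrays lay on both sides of the SCR arrays.

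The junction probe sets reached further down than the exon probe sets, and their largest differences were of similar size. JUC08000143 had 6.80, 6.49 and 6.43 on the SCR arrays against 8.41, 8.56 and 8.32 on the knockdown arrays, a difference of 1.86 (SE 0.12). JUC08000162 had 7.22, 7.50 and 7.60 against 9.31, 9.38 and 9.17, a difference of 1.85 (SE 0.12). JUC08000133 had 7.48, 7.33 and 7.04 against 8.94, 9.19 and 9.11, a difference of 1.80 (SE 0.13). In these junctions the knockdown arrays stood more than 1 above the highest SCR array. JUC08000121, one of the pair that chose the gene, had 8.02, 8.09 and 7.93 against 9.56, 9.60 and 9.75, a difference of 1.62 (SE 0.092).

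The 3 junction probe sets with lower knockdown arrays were JUC08000127, JUC08000156 and JUC08000146. JUC08000127 had 7.24, 6.98 and 7.10 on the SCR arrays against 6.54, 6.38 and 6.71 on the knockdown arrays, a difference of -0.56 (SE 0.12). JUC08000156, the other that chose the gene, had 8.03, 8.11 and 8.08 against 7.67, 7.77 and 7.82, a difference of -0.32 (SE 0.082). JUC08000146, named because it completes this count, had 8.23, 8.21 and 8.30 against 8.17, 7.69 and 8.20. Its 3 knockdown arrays were below the SCR arrays by a small margin on 2 of them. JUC08000160 had 6.13, 5.95 and 6.06 against 5.57, 4.79 and 6.59, a difference of -0.40 (SE 0.39), with knockdown arrays on both sides of SCR. JUC08000123 was lowest of all at -0.61, with a mean signal of 3.59 that did not pass the filter and with overlapping groups.

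The splicing index sets each probe set against its own gene. It is the log2 signal minus the mean of those exon probe sets of its gene that pass the filter, on the same array. The exon mean of MYOM2 included PSR08000258 and PSR08000281, which passed the filter only through the knockdown arrays. It stood at 7.32, 7.30 and 7.33 on the SCR arrays against 7.94, 7.98 and 8.03 on the knockdown arrays, higher by 0.67. By construction, a MYOM2 probe set whose signal stood still has an index difference near the negative of that value. The index separated the groups upward in 33 of the 97 MYOM2 probe sets and downward in 37, against 6.97% and 6.42% of 565660 probe sets in 17750 genes. In the limma test of all these, 0 probe sets (0%) had an adjusted p under 0.05, the smallest adjusted p was 0.34, and 41967 had an unadjusted p under 0.05. The index of JUC08000121 and JUC08000156 was part of how the gene was chosen, so the MYOM2 counts are a description.

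For JUC08000121 the index was 0.70, 0.79 and 0.60 on the SCR arrays against 1.62, 1.61 and 1.72 on the knockdown arrays, a difference of 0.95 (SE 0.079). For JUC08000156 it was 0.71, 0.81 and 0.76 against -0.27, -0.22 and -0.22, a difference of -0.99 (SE 0.067). The first was higher and the second lower on every knockdown array, as the choice of the gene by these junctions brings with it. JUC08000127 had the lowest index difference, with -0.08, -0.32 and -0.23 against -1.39, -1.61 and -1.32, a difference of -1.23 (SE 0.10). JUC08000143 had the highest among the junctions, with -0.52, -0.81 and -0.90 against 0.47, 0.57 and 0.29, a difference of 1.19 (SE 0.12). The signal of JUC08000156 was lower by 0.32 only, and that of JUC08000127 by 0.56, while the exon mean was higher by 0.67. The exon mean is thus the larger part of both index differences, by a small margin for JUC08000127. The exon probe set PSR08000258, which passed the filter only through the knockdown arrays, had an index difference of 1.43 (SE 0.49) with overlapping groups.

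**Figure D3:**
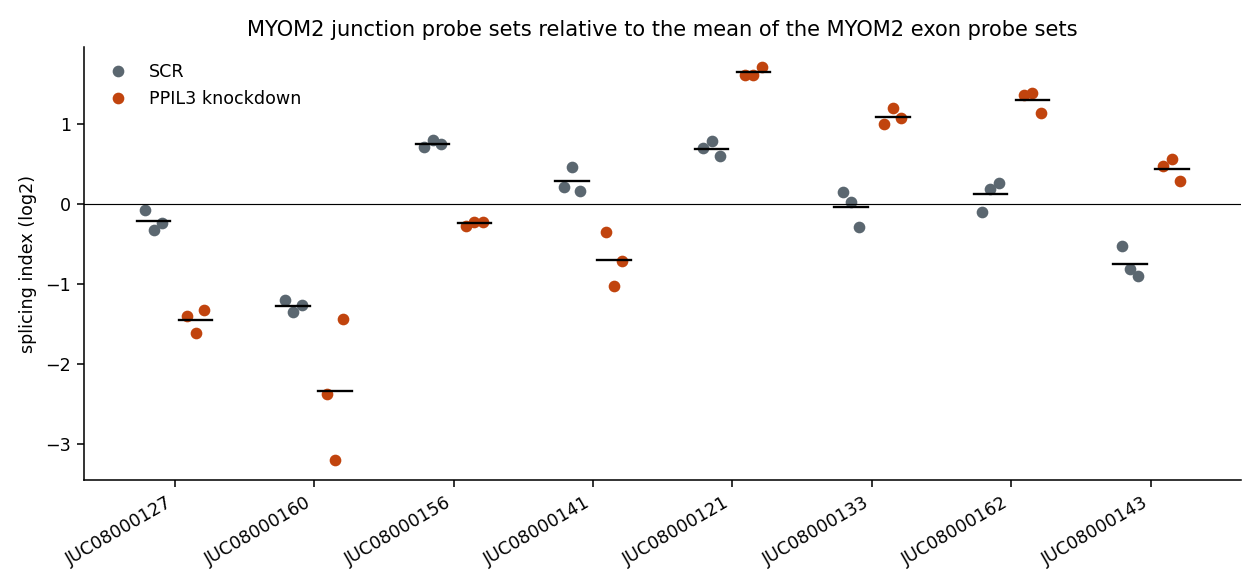
Splicing index (log2, signal minus the MYOM2 exon mean on the same array) of 8 MYOM2 junction probe sets, 4 with the lowest and 4 with high index differences, 1 point per array with bars at the group means. Knockdown points lie below SCR in the left 4 and above in the right 4, and JUC08000160 has the widest spread in the knockdown.

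The probe sets of the paralogs lay nearer to 0. Of the 80 MYOM1 probe sets, 55 passed the filter, with a median difference of 0.06 for exon and -0.08 for junction probe sets and a range from -0.49 to 0.65. Of the 93 MYOM3 probe sets, 77 passed, with medians of -0.04 and -0.05 and a range from -0.38 to 0.41. The MYOM1 exon median was 0.0068 without knockdown array 1 and 0.11 without knockdown array 3, and the MYOM3 exon median was 0.04 without knockdown array 2. Neither paralog had a probe set with a difference above 1. In the limma test over the 745098 probe sets, 0.00429% had an adjusted p under 0.05 (32 probe sets, and 0 with the replicate block). None of those was in MYOM1, where 8 had an unadjusted p under 0.05 and the smallest adjusted p was 0.21, or in MYOM3, where 3 did and the smallest was 0.38. Over the array 9.45% had an unadjusted p under 0.05.

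In MYOM1, 4 of the probe sets that passed had an SCR mean under 5 and passed through the knockdown arrays, and in MYOM3 0 did. One of these 4 was the MYOM1 probe set with the largest difference, JUC18002282, which had 5.01, 4.49 and 5.21 on the SCR arrays against 5.77, 5.05 and 5.85 on the knockdown arrays, a difference of 0.65 (SE 0.25). The MYOM3 probe set with the largest difference, PSR01036403, had 5.13, 5.39 and 5.22 against 5.56, 5.55 and 5.87, a difference of 0.41 (SE 0.12, limma adjusted p = 0.39). Of these 2 probe sets, only the MYOM3 one had groups that did not overlap. Over all 39 MYOM1 exon probe sets, the knockdown arrays lay above the SCR arrays in 5 and below in 1. Over its 41 junction probe sets the counts were 2 and 4. For MYOM3 they were 2 and 1 of 48 exon, and 3 and 0 of 45 junction probe sets. Among probe sets of the array that passed, the shares were 7.86% and 8.24%. The mean of the exon probe sets that passed differed by 0.13 in MYOM1, without overlap, and by -0.03 in MYOM3. The splicing index gave no call in either paralog, with a smallest adjusted p of 0.51 in MYOM1 and 0.53 in MYOM3.

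**Figure D4:**
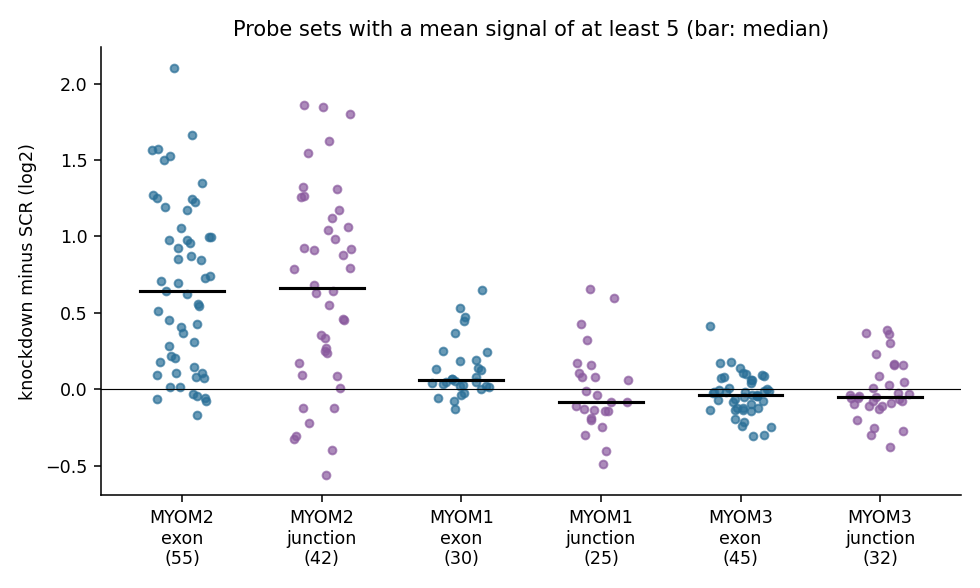
Difference between knockdown and SCR (log2) of each MYOM2, MYOM1 and MYOM3 probe set that passed the filter of 5 on the mean signal, exon and junction apart, with the number of probe sets in parentheses and a bar at the median. The MYOM2 medians are 0.64 and 0.66, and those of the paralogs lie between -0.08 and 0.06.

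MYOM2 lies on chromosome 8 in the RefSeq table, and the genes beside it did not pass the test. Of the 3 nearest measured genes on each side, 0 of 6 had a limma adjusted p under 0.05. Over all genes tested, 0.557% passed as higher and 0.131% as lower, so this count does not set the neighbours apart. ARHGEF10 had 8.40, 8.49 and 8.49 on the SCR arrays against 8.27, 8.39 and 8.28 on the knockdown arrays, a difference of -0.15 (limma adjusted p = 0.20). On the other side, ANGPT2, a ligand of the TIE2 receptor, had 5.26, 5.21 and 5.21 against 5.33, 5.39 and 5.36, a difference of 0.13 (limma adjusted p = 0.13). In both genes the groups did not overlap, in opposite directions, as also in RNA5SP251, which was higher. The share of all genes with such separation at gene level was not counted, so nothing is read from it. MIR596, KBTBD11, CSMD1 and RNA5SP251 had differences of -0.12, 0.09, -0.01 and 0.17, with limma adjusted p of 0.71, 0.36, 0.86 and 0.32.

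Other sarcomere genes were read from lists that leave out the myomesins. Of 91 listed genes, 81 were tested and 2 passed a limma adjusted p under 0.05, both higher in the knockdown. Over all genes tested, 0.557% passed as higher and 0.131% as lower. The 81 had a median difference of -0.0077, beside -0.0045 over all genes. An unadjusted p under 0.05 was found for 9 of the 81, against 15.4% of all genes. Among 19 tested M-band proteins and titin partners 1 rose, ALPK3, an atypical kinase of the M-band. It had 7.07, 7.04 and 7.05 on the SCR arrays against 7.30, 7.34 and 7.32 on the knockdown arrays, a difference of 0.27 (SE 0.027, limma adjusted p = 0.019). With the replicate block the adjusted p was 0.070, and it lay between 0.048 and 0.16 when 1 array was left out. Titin (TTN), the giant spring to which myomesins bind, had the same value to all digits, 5.15, on all 6 arrays. This value lies near the filter of 5 and is not read as constant expression.

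Of 17 tested thick filament genes none passed the test or had an unadjusted p under 0.05, and the differences ran from -0.06 to 0.03. The largest were those of MYH3, embryonic myosin heavy chain, at -0.06 (limma adjusted p = 0.47), and MYL4, atrial and embryonic light chain, at -0.06 (limma adjusted p = 0.70). Of 25 thin filament and Z-disc genes 1 rose, beside 0.557% of all genes. That gene was PDLIM3, which encodes an actinin-binding Z-disc protein. It had 7.64, 7.55 and 7.57 against 7.80, 7.83 and 7.82, a difference of 0.23 (SE 0.034, limma adjusted p = 0.049). That p was 0.10 with the replicate block, 0.061 without the filter on low values and between 0.061 and 0.25 with 1 array left out. Of 20 muscle regulators none passed. The largest differences were those of HAND1, a heart transcription factor, at 0.29 (limma adjusted p = 0.15), and PAX7, a satellite cell factor, at -0.19 (limma adjusted p = 0.14).

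**Figure D5:**
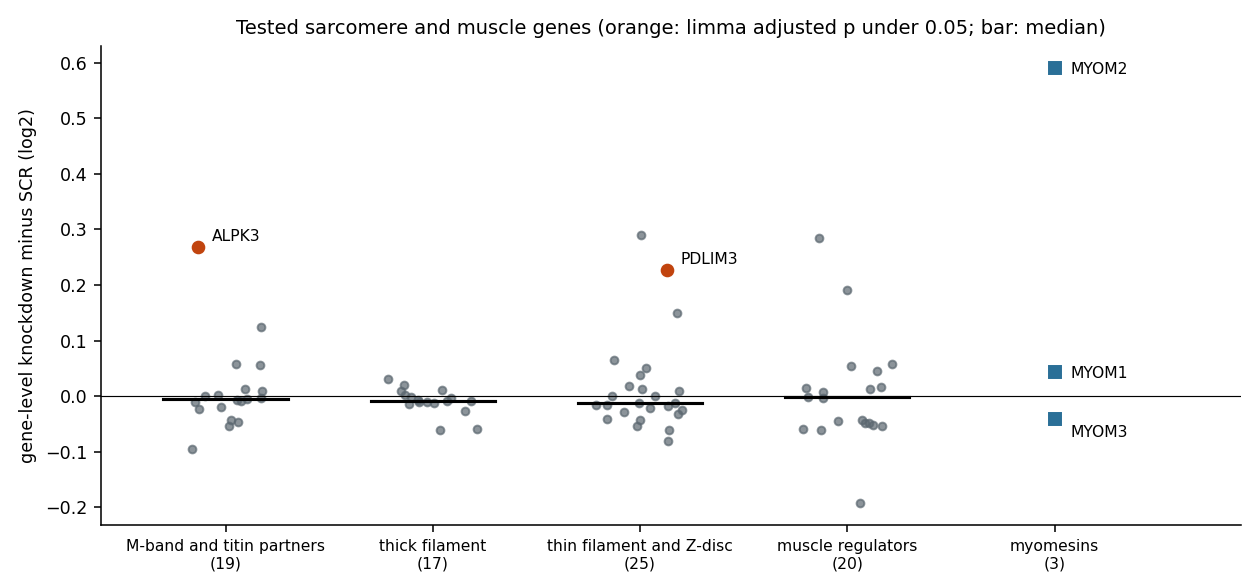
Gene-level difference between knockdown and SCR (log2) of the tested genes of the 4 lists, with the 3 myomesins at the right. Orange points passed a limma adjusted p under 0.05, bars are list medians, and the 0.59 of MYOM2, which was chosen for its value, lies above every listed gene.

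Cell type markers were read in the same way. Of 10 tested striated muscle markers, 0 passed and 0 had an unadjusted p under 0.05. The log2 signal summed over the 11 markers with a cluster, MYH8 under the filter included, was 74.9 to 75.2 on the SCR arrays and 74.5 to 75.3 in the knockdown. MYOD1, the master regulator of muscle fate, had a difference of 0.05 and MYOG, which drives muscle differentiation, -0.06. RMA values carry no detection call, so whether these transcripts were present was not decided. Of 11 tested markers of the HEK293T lineage 1 passed as higher, beside 0.557% of all genes. That marker was NEFM, the medium neurofilament chain, with a difference of 0.70. The others went both ways without passing, with 0.30 for KRT8, -0.30 for INA and -0.14 for VIM, and the list median was -0.03. These 3 and NEFM were the 4 of 11 with an unadjusted limma p under 0.05, against 15.4% of all genes. The summed signal was 99.5 to 99.6 against 99.99 to 100.3, a gap smaller than that of NEFM alone. Its part in the MYOM2 values was not tested. Of 3 tested fibroblast markers 0 passed. Summed over 5 with a cluster, DCN and LUM under the filter included, the signal was 31.1 to 31.3 against 31.2 to 31.6, and LUM had a difference of 0.15.

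The genes whose gene-level pattern over the 6 arrays was most like that of MYOM2 were found by the root mean square distance of signals centred on their own mean. They were HMSD, a serpin-domain gene, at 0.047, JAKMIP2, which encodes a microtubule-binding protein, at 0.064, NEFM at 0.064, NSUN7, of a family of RNA methyltransferases, at 0.065 and PLA2G4A, a cytosolic phospholipase, at 0.068. The median distance over 19911 genes was 0.302. HMSD had 6.01, 5.94 and 5.99 on the SCR arrays against 6.46, 6.52 and 6.49 on the knockdown arrays, higher by 0.51. NEFM had 8.18, 8.12 and 8.13 against 8.88, 8.78 and 8.87, higher by 0.70. JAKMIP2, NSUN7 and PLA2G4A were higher by 0.49, 0.50 and 0.52, and in all 5 the groups did not overlap, which the likeness to MYOM2 brings with it.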

How the data were processed

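The authors processed HTA 2.0 arrays with Affymetrix Expression Console and RMA, per the labels, and deposited log2 signals by transcript cluster and by probe set. Their versions and the genome build are not given in the sources used. RMA equalizes the arrays, which hides any shift common to most transcripts, and its robust fit can return 1 value on several arrays. The 12 samples are 6 arrays summarized in 2 ways: all 2995 shared rows were identical between same-named samples, at most 15 between others. The number of arrays limits the precision.

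Features with a mean of at least 5 were tested with limma 3.58.1 (R 4.3.3; two-sided, Benjamini-Hochberg over each whole table, 0.05), after a test on simulated data. The splicing index needed at least 3 exon probe sets per gene. Symbols came from the platform annotation. At gene level they were updated with RefSeq names (GRCh38.p14), and clusters with several symbols or none were left out. Probe sets kept their annotated symbols. Those with several symbols or none stayed in the probe set test and its shares but had no splicing index. Members and lists were chosen with earlier results of these data known. Named probe sets are the highest and lowest differences and the brightest exon probe set. Named genes are PPIL3, the neighbours, the 5 nearest profiles and, per list, called members or the 2 largest differences.

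The labels give both groups the same replicate numbers. At gene level the deviations of same-numbered arrays from their group means had r = 0.34, 0.16 and 0.14. Differently numbered arrays had r from -0.35 to 0.21, so only the arrays numbered 1 exceeded that range. At probe set level r was 0.24, 0.12 and 0.02, against -0.21 to 0.12. Alternatives were this block, other filters, normalization, moderation, cluster choice and index base, and leaving out each array. Those for ALPK3, PDLIM3 and PPIL3 were added after seeing the data.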

Additional observations from a re-analysis of the deposited data

How the results depend on the processing

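The replicate block, other filters, moderation and cluster choice cannot change the MYOM2 gene-level difference, which stayed at 0.59. With 1 array left out it lay between 0.57 and 0.61. Its direction could not turn, since every knockdown array lay above every SCR array, and the gene was chosen for it. The median MYOM2 exon probe set difference lay between 0.60 and 0.70 with 1 array left out. The median MYOM2 junction difference was 0.59 with no filter on low values. The lowest MYOM2 splicing index difference was picked anew in each setting. It was -1.44 against the median of the exon probe sets and between -1.51 and -1.15 with 1 array left out. The -1.51, without knockdown array 3, was that of JUC08000160 and not of JUC08000127, so the range does not describe 1 junction. MYOM1 did not pass the test under any of 11 alternatives and was under the filter with a mean of at least 6. MYOM3 did not pass under any of 12, with a difference between -0.069 and 0.0083 when 1 array was left out and the sign reversed, at 0.0083, without knockdown array 2. With the replicate number as a block, the 137 genes called became 32, the 2 listed genes 0 and the 32 probe sets 0, and PPIL3 stayed called (limma adjusted p = 0.045). With 1 array left out, genes called ranged from 1 (without SCR array 3) to 69 (without knockdown array 1), listed genes called from 0 to 1, and probe sets called were 0 each time. Without the filter 1 listed gene and 0 probe sets were called. A mean of at least 6 gave 138 probe sets and eBayes with trend and robust gave 510. No alternative gave a splicing index call. The causes were not tested.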
